A study of Mus musculus with 18 samples.

Results

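The p53 pathway genes described here are *Trp53*, which encodes the transcription factor p53, and 9 genes known as its transcriptional targets: *Mdm2*, *Cdkn1a*, *Ccng1*, *Bax*, *Bbc3*, *Trp53inp1*, *Phlda3*, *Sesn1* and *Zmat3*. They were chosen by symbol, written in capitals in the count tables (TRP53, MDM2, CDKN1A, CCNG1, BAX, BBC3, TRP53INP1, PHLDA3, SESN1 and ZMAT3), and all 10 were found among the 24360 symbols of the table of each line. RNA-seq was done on 168FARN and 67NR, sister lines of a mouse mammary tumour that do not metastasize, each as WT, *Kmt2c* KO and *Kmt2d* KO cells. Each of the 6 groups had 3 replicates, which gave 18 libraries. KO cells of both lines had been transfected with Cas9 and guides against exon 1 of *Kmt2c* or *Kmt2d* and sorted, and were used as pools of edited cells and not as clones, so that they can hold unedited cells. The WT columns are named for a control guide in 168FARN and only as WT in 67NR. Replicates were collected a passage apart, and p-values measure the spread between such collections.

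The protein p53 is kept at a low level by MDM2, a ubiquitin ligase that marks it for degradation and is itself made from a p53 target gene. When p53 is stabilized, for example after DNA damage, it binds its response elements and raises genes that stop the cell cycle, such as *Cdkn1a*, which encodes the cyclin-dependent kinase inhibitor p21, and genes that promote apoptosis, such as *Bax* and *Bbc3*. KMT2C and KMT2D are histone methyltransferases that act mainly at enhancers. The question put to the data was how the level of these transcripts differed between genotypes within each line and between the lines. Neither p53 protein nor its sequence can be read from gene counts.

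The p53 response element was searched as a pair of half-sites of 10 bases that adjoin directly. Pairs with bases between the half-sites were not searched. The 3000 bases on each side of the annotated start of every protein-coding gene were searched in mm9, on both strands at once because the p53 consensus is its own reverse complement, with the C and G of each half-site core required to match. A match over all 20 bases was found in 0.103% of 22367 windows and in 1 of the 10 genes, and a match with at most 1 mismatch in 0.966% of windows and in 3 of the 10. With at most 2 mismatches the shares were 5.94% of windows and 4 of 10 genes. With at most 3 they were 25.3% and 7 of 10, and *Sesn1*, *Trp53inp1* and *Phlda3* held no such match in these windows. The matches with at most 2 mismatches are shown because they stand beside 4 of the genes whose transcripts were higher in 67NR KO cells, and they are read 5′ to 3′ on the strand of the gene. Capitals mark letters that match the consensus and lower case marks mismatches.
Zmat3: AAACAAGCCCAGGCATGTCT
Cdkn1a: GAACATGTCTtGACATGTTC
Ccng1 intron: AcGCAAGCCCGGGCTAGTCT
Ccng1 upstream: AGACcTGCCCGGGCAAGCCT
Bax: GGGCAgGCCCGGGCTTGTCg
The *Zmat3* match (chr3:32263253-32263272, minus strand) lay in an intron, 1328 bases after the start of the gene. The *Cdkn1a* match (chr17:29227873-29227892, plus strand) began 51 bases before it. In *Ccng1*, the first match (chr11:40568438-40568457, minus strand) was intronic, 356 bases after the start, and the second (chr11:40568964-40568983, minus strand) began 170 bases before it. The *Bax* match (chr7:52721944-52721963, minus strand) began 305 bases after the start, in an exon that some transcripts do not translate. These are matches of letters only, and binding of p53 was not measured.

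Library totals ran from 14359760 to 43427382 counts in 168FARN and from 40951775 to 79251530 in 67NR, and the counts of the 10 genes in a library ran from 70 to 29755. The transcripts of the targeted genes cannot check the labels, since a frameshift in exon 1 need not lower a transcript. *Kmt2c* was at 45.5 to 117 CPM in 168FARN WT and 48.0 to 98.5 CPM in *Kmt2c* KO cells, and at 55.7 to 64.7 and 82.9 to 92.2 CPM in 67NR, where it was called higher (log2 fold change 0.63 ± 0.14, adjusted p = 0.00669). *Kmt2d* was at 106 to 165 CPM in 168FARN WT and 139 to 299 CPM in *Kmt2d* KO cells, and at 84.7 to 114 and 90.9 to 141 CPM in 67NR, and was called in neither line (log2 fold changes 0.71 ± 0.36 and 0.22 ± 0.23, adjusted p = 1 and 0.563). Replicate 3 stood apart from replicates 1 and 2 in every group of both lines. In replicate 3 of 67NR *Kmt2d* KO, 28.7% of counts fell on the ribosomal RNA gene *Rn45s*, against 0.458% to 4.96% in the other libraries. The summed level of 6 epithelial markers was 2000 to 3303 CPM in 67NR WT, against 404 to 728 CPM with *Kmt2c* KO and 692 to 1470 CPM with *Kmt2d* KO, and *Krt5* was at 0 in every library. In 168FARN, although the line is of mammary origin, only *Krt8* of the 6 exceeded 1 CPM on average, and *Epcam* and *Krt5* were at 0. Of 6 immune markers only *Cd68* exceeded 1 CPM on average, and 4 endothelial markers were all below it. Of 3 adipocyte markers, *Fabp4* averaged 0.535 CPM in 67NR WT, 9.03 CPM with *Kmt2c* KO and 4.13 CPM with *Kmt2d* KO.

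Levels are given as CPM, counts per 1000000 after TMM scaling of all 18 libraries together, in the order of replicates 1, 2 and 3. Calls come from edgeR's quasi-likelihood test on all genes and needed both an adjusted p under 0.1 and a log2 fold change over 0.6 in size, and ± after a log2 value is its standard error. In bulk RNA, a change in the number of cells that express a gene and a change in the level per cell cannot be told apart. All 10 genes passed the filter on low counts in both lines.

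In WT cells, *Trp53* and most of its targets were more abundant in 168FARN than in 67NR. Between the WT libraries, 7 of the 10 genes were called higher in 168FARN, where 16.9% of all 13882 genes tested were called higher, and 1, *Sesn1*, was called lower (22.3% of all genes). The median log2 difference was 1.49 over the 10 genes and -0.03 over all genes. Per kilobase of exon sequence, the most abundant of the 10 in 168FARN WT were *Ccng1* at 143 and *Bax* at 137 CPM per kilobase and the least abundant was *Sesn1* at 2.04. In 67NR WT they were *Bax* at 38.9, *Ccng1* at 26.4 and, lowest again, *Sesn1* at 3.26 CPM per kilobase. Each line has its own count table and its own collections, so that line, table and collection cannot be told apart in these differences.

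The difference between the WT lines was widest for *Cdkn1a*, which was at 287, 325 and 159 CPM in 168FARN WT and 43.1, 35.8 and 11.7 CPM in 67NR WT (8.50-fold, log2 difference 3.09 ± 0.49, adjusted p = 1.12e-04). Log2 differences of the other called genes were 2.44 ± 0.23 for *Ccng1*, 2.43 ± 0.36 for *Phlda3*, 1.82 ± 0.33 for *Bax*, 1.57 ± 0.37 for *Mdm2*, 1.32 ± 0.21 for *Trp53* and 1.22 ± 0.24 for *Zmat3*, with adjusted p-values of 7.31e-07 to 0.00319. The WT libraries of the lines did not overlap for these 7 genes (20.5% of all genes had no overlap in that direction), nor for *Sesn1* (26.2% in the other direction; log2 difference -0.68 ± 0.23, adjusted p = 0.0315), which encodes a stress-induced inhibitor of growth signalling. The call for *Sesn1* was lost without replicate 3 of 168FARN WT (-0.54, adjusted p = 0.119). *Bbc3* differed by 1.42 ± 0.84 (adjusted p = 0.209) and was called only without replicate 3 of 168FARN WT (1.94, adjusted p = 0.0935). *Trp53inp1* differed by 0.15 ± 0.86 (adjusted p = 0.918).

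**Figure D1:**
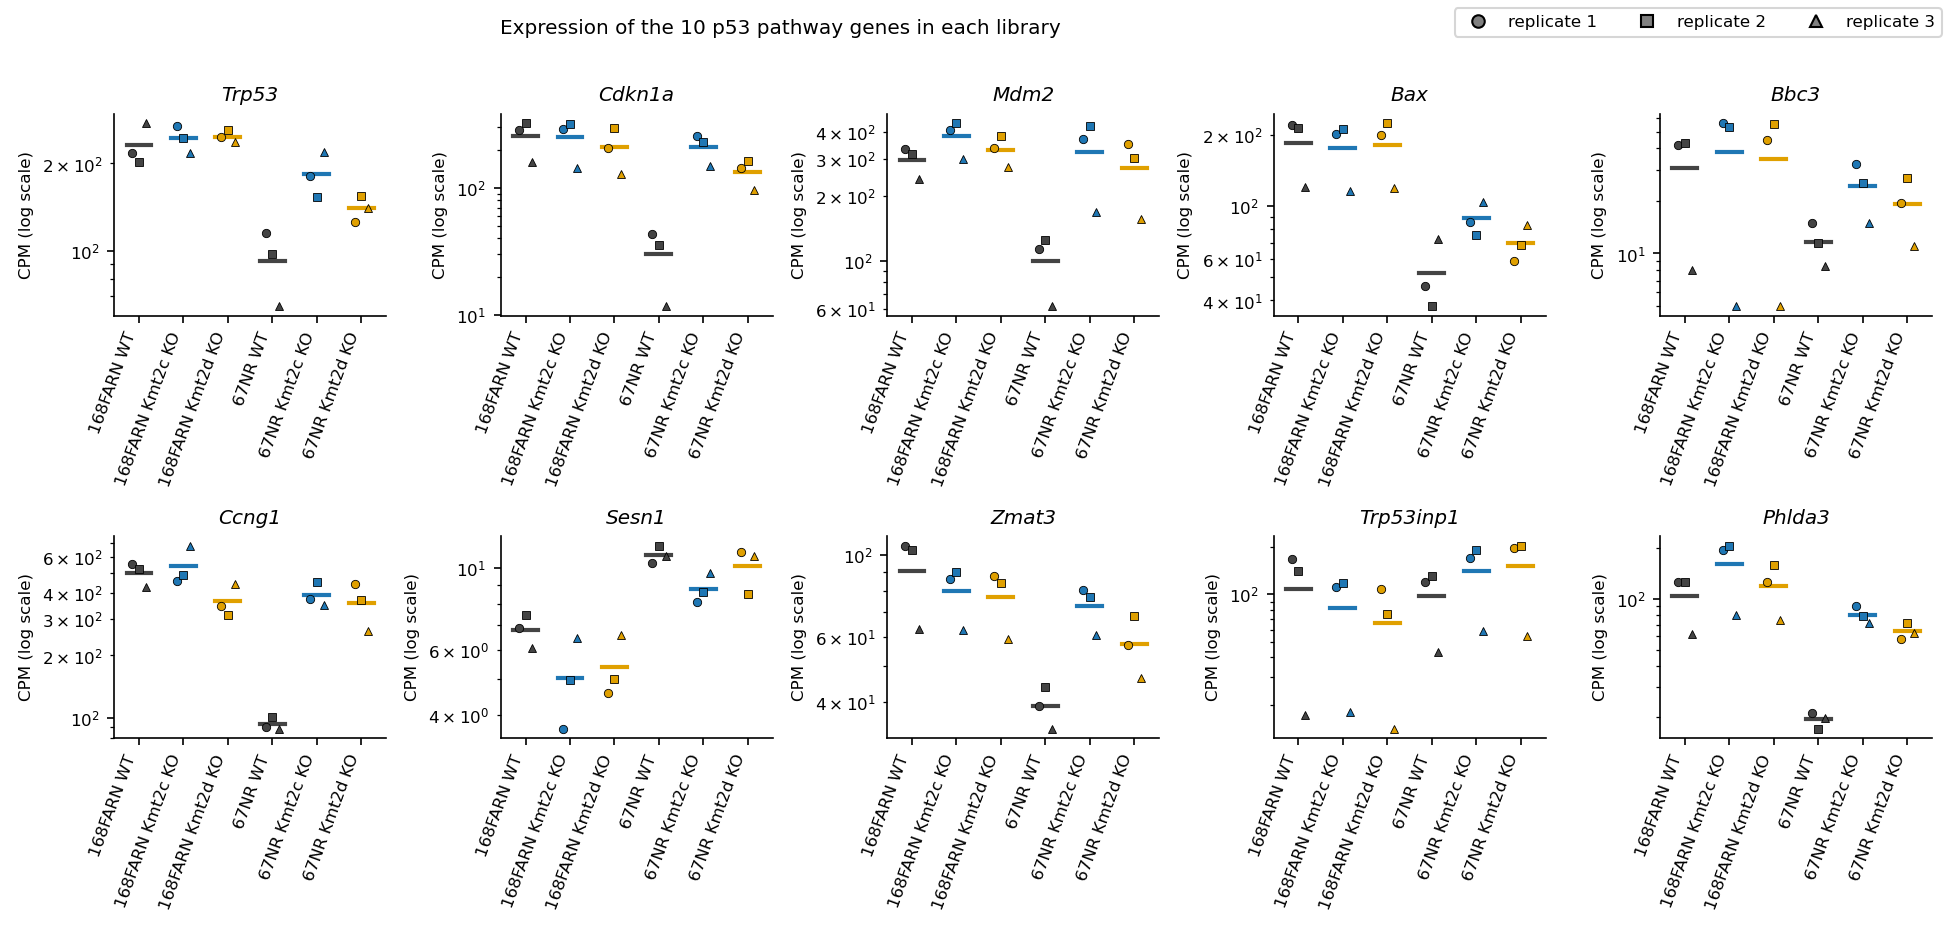
Level of each of the 10 genes in each of the 18 libraries, as CPM on a log axis, by line and genotype. Points are libraries with a shape for each replicate number, and short bars are group means. The 67NR WT libraries of *Cdkn1a*, *Ccng1*, *Mdm2* and *Phlda3* sit below all other libraries of these genes, and the triangles of replicate 3 sit lowest in every group for *Bbc3* and *Trp53inp1*.

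In 67NR, *Kmt2c* KO cells had higher transcripts of *Trp53*, of its regulator *Mdm2*, of both cell cycle genes and of 3 of the 4 apoptosis genes than WT cells. Against WT, 8 of the 10 genes were called higher in *Kmt2c* KO cells and 6 in *Kmt2d* KO cells, where 17.9% and 13.9% of all 13665 genes tested were called higher, and 0 were called lower, where 17.4% and 11.6% of all genes were. At an adjusted p under 0.05 with no fold threshold, 8 and 5 of the 10 passed, where 34.2% and 22.8% of all genes did. The called genes are also those whose KO libraries all lay above WT, which held for 21% and 17.4% of all genes. Over the 10 genes the median log2 fold change was 1.11 for *Kmt2c* KO and 0.76 for *Kmt2d* KO, beside -0.02 over all genes in each. Both comparisons use the same WT libraries. Epithelial markers fell in these cells, with 5 of 5 tested called lower with *Kmt2c* KO and 3 of 5 with *Kmt2d* KO, or 5 of 5 with the replicate block. Of 6 mesenchymal markers, *Zeb1*, *Zeb2*, *Cdh2*, *Twist1* and *Vim* were called higher and *Fn1* lower in both. The part of that shift in the levels of the p53 genes was not tested.

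The 67NR KO libraries also lay nearer to 168FARN than 67NR WT did. Whether this is linked to the 67NR KO differences and interactions given here was not tested. Across 13882 genes, Pearson's r of the group means of log2(CPM + 1) with 168FARN WT was 0.860 for 67NR WT, 0.942 for *Kmt2c* KO and 0.926 for *Kmt2d* KO, and that with 67NR WT was 0.921 for *Kmt2c* KO and 0.949 for *Kmt2d* KO. By limits chosen after the data were seen, 159 genes were at 10 CPM or more in each 67NR WT library and at most 0.1 CPM in each 168FARN WT library. In each KO group 156 of them were above 0.1 CPM in all libraries. At 10 CPM or more in all libraries there were 33 with *Kmt2c* KO and 66 with *Kmt2d* KO. Of 13 genes with the opposite pattern, 0 reached 10 CPM in all libraries of a KO group. In each KO group 8 were at or below 0.1 CPM in all libraries, and 3 with *Kmt2c* KO and 4 with *Kmt2d* KO were above it in all. The identity of the KO pools cannot be read from gene counts alone, and its part in these differences was not tested.

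**Figure D2:**
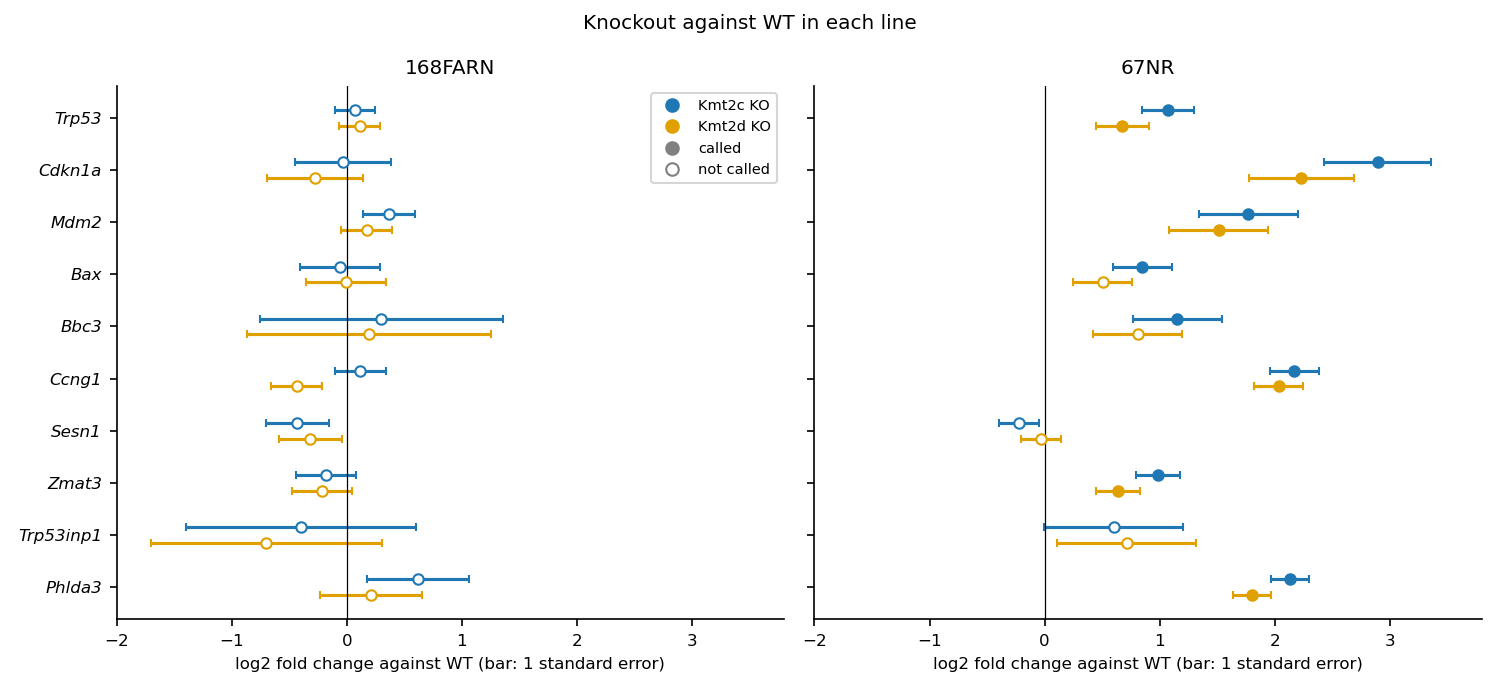
Log2 fold change of each of the 10 genes against WT, blue for *Kmt2c* KO and yellow for *Kmt2d* KO, in 168FARN on the left and 67NR on the right. Points are estimates of edgeR's fit, bars are 1 standard error and filled points were called. In 67NR 8 and 6 points are filled, and in 168FARN 0.

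*Trp53* itself was at 116, 97.97 and 64.6 CPM in 67NR WT. It was at 181, 153 and 219.5 CPM in *Kmt2c* KO cells and 126, 155 and 141 CPM in *Kmt2d* KO cells. All KO libraries were above all WT libraries, and replicate 3 was the lowest in WT and the highest in *Kmt2c* KO cells. *Trp53* rose 2.10-fold in *Kmt2c* KO (log2 fold change 1.07 ± 0.23, adjusted p = 0.00611) and 1.60-fold in *Kmt2d* KO cells (log2 fold change 0.68 ± 0.23, adjusted p = 0.0621). The *Kmt2d* KO call was lost when any of 5 of the 6 libraries was left out: WT replicate 2 (adjusted p = 0.127), WT replicate 3 (log2 fold change 0.47) or *Kmt2d* KO replicate 1, 2 or 3 (adjusted p = 0.106, 0.190 and 0.102). With replicates 1 and 2 only, *Trp53* differed by 0.72 for *Kmt2c* KO and 0.47 for *Kmt2d* KO, the latter under the fold threshold.

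*Mdm2*, the negative regulator of p53, was at 114, 125 and 61.4 CPM in 67NR WT. It was at 372, 426 and 168 CPM in *Kmt2c* KO cells and 352, 303 and 156 CPM in *Kmt2d* KO cells. Within each replicate number the KO library was 3.27, 3.40 and 2.74 times WT for *Kmt2c* and 3.10, 2.42 and 2.54 times WT for *Kmt2d*, so that replicate 3, although lower in every genotype, kept a ratio like the others. The log2 fold changes were 1.77 ± 0.43 (adjusted p = 0.0118) and 1.51 ± 0.43 (adjusted p = 0.0330). Without replicate 1 of *Kmt2d* KO the second was no longer called (1.27, adjusted p = 0.112).

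Of the cell cycle genes, *Cdkn1a* had the largest fold change of the 10 in both KO groups of 67NR. It was at 43.1, 35.8 and 11.7 CPM in WT libraries, at 257, 231 and 148 CPM with *Kmt2c* KO and at 145, 162 and 95.9 CPM with *Kmt2d* KO. The lowest KO library was above the highest WT library by more than the range of WT. *Cdkn1a* rose 7.43-fold in *Kmt2c* KO (log2 fold change 2.89 ± 0.47, adjusted p = 0.00135) and 4.70-fold in *Kmt2d* KO cells (log2 fold change 2.23 ± 0.45, adjusted p = 0.00747), and by replicate number the KO library was 5.95, 6.44 and 12.7 times and 3.35, 4.53 and 8.22 times WT. Both calls held when any single library was left out. Levels of *Cdkn1a* in 67NR *Kmt2c* KO cells overlapped with those in all 168FARN groups.

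*Ccng1* encodes cyclin G1, an atypical cyclin that takes part in the feedback on p53 through MDM2. It was at 89.8, 100.4 and 88.2 CPM in 67NR WT, a narrow range. In *Kmt2c* KO cells it was at 376, 455 and 351 CPM and in *Kmt2d* KO cells at 446, 369.6 and 263 CPM. The groups were far apart: *Ccng1* rose 4.50-fold (log2 fold change 2.17 ± 0.21, adjusted p = 7.91e-05) and 4.10-fold (log2 fold change 2.03 ± 0.21, adjusted p = 2.01e-04), and both calls held with each library left out.

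The apoptosis genes moved by different amounts in 67NR. *Phlda3*, which encodes a pleckstrin homology domain protein that restrains AKT signalling, was at 21.3, 17.03 and 19.8 CPM in WT libraries, at 89.8, 79.01 and 71.8 CPM with *Kmt2c* KO and at 57.6, 71.8 and 62.9 CPM with *Kmt2d* KO. It rose 4.39-fold (log2 fold change 2.13 ± 0.17, adjusted p = 1.92e-05) and 3.49-fold (log2 fold change 1.80 ± 0.16, adjusted p = 8.06e-05), with no overlap of either KO group with WT. The KO groups nearly touched, at 71.843 CPM in the lowest *Kmt2c* KO library and 71.775 CPM in the highest *Kmt2d* KO library. Both calls held with each library left out. *Bax*, an effector that opens the outer mitochondrial membrane, was at 45.9, 37.8 and 72.7 CPM in WT libraries, at 86.01, 75.7 and 104 CPM with *Kmt2c* KO and at 58.5, 68.6 and 83.2 CPM with *Kmt2d* KO, with replicate 3 the highest of each group. Its call in *Kmt2c* KO cells (log2 fold change 0.85 ± 0.26, adjusted p = 0.0306) was lost without replicate 1 of WT (0.76, adjusted p = 0.101). In *Kmt2d* KO cells the difference of 0.50 ± 0.26 was not called (adjusted p = 0.198), and without replicate 3 of WT it was (0.82, adjusted p = 0.0198). That fit set WT replicates 1 and 2 against all 3 *Kmt2d* KO replicates. With the replicate block the difference was under the fold threshold (0.54, adjusted p = 0.0128).

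*Bbc3* encodes PUMA, an activator of BAX. It was at 14.9, 11.5 and 8.47 CPM in 67NR WT libraries, at 32.6, 25.5 and 14.998 CPM with *Kmt2c* KO and at 19.4, 27.1 and 11.1 CPM with *Kmt2d* KO. *Kmt2c* KO libraries lay just above the WT range and *Kmt2d* KO libraries overlapped with it. The *Kmt2c* KO call (log2 fold change 1.15 ± 0.39, adjusted p = 0.0461) was lost without WT replicate 2 (adjusted p = 0.117), WT replicate 3 (0.103), *Kmt2c* KO replicate 1 (0.163) or *Kmt2c* KO replicate 2 (0.111). In *Kmt2d* KO cells *Bbc3* differed by 0.81 ± 0.39 (adjusted p = 0.174) and was called without *Kmt2d* KO replicate 3 (1.10, adjusted p = 0.0593) and in the fit with replicate number as a block (0.77, adjusted p = 0.00844, where 17.4% of all genes were called higher). *Trp53inp1*, whose product promotes p53 activity and cell death, was at 119, 131 and 43.4 CPM in WT libraries, at 168, 192 and 58.7 CPM with *Kmt2c* KO and at 196, 203 and 54.3 CPM with *Kmt2d* KO. The spread within each group came mostly from replicate 3. Neither difference was called (0.60 ± 0.61 and 0.71 ± 0.61, adjusted p = 0.496 and 0.458). Within each replicate number, however, the KO library was 1.42, 1.46 and 1.35 times WT for *Kmt2c* and 1.65, 1.55 and 1.25 times WT for *Kmt2d*, and with the replicate block the *Kmt2d* KO difference was called (0.64, adjusted p = 0.00146) while that of *Kmt2c* KO was under the fold threshold (0.58, adjusted p = 0.00190).

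*Zmat3*, which encodes an RNA-binding zinc finger protein, was at 38.97, 43.98 and 33.8 CPM in 67NR WT libraries, at 80.4, 76.8 and 60.8 CPM with *Kmt2c* KO and at 56.9, 68.4 and 46.6 CPM with *Kmt2d* KO. Both KO groups lay above WT. The call in *Kmt2c* KO cells (log2 fold change 0.98 ± 0.19, adjusted p = 0.00413) held with each library left out. That in *Kmt2d* KO cells (log2 fold change 0.64 ± 0.19, adjusted p = 0.0434) lay close to the fold threshold and was lost without WT replicate 1 (adjusted p = 0.111), WT replicate 3 (log2 fold change 0.55), *Kmt2d* KO replicate 1 (adjusted p = 0.105) or *Kmt2d* KO replicate 2 (adjusted p = 0.158). *Sesn1* was at 10.3, 11.5 and 10.8 CPM in WT libraries, at 8.09, 8.60 and 9.67 CPM with *Kmt2c* KO and at 11.01, 8.52 and 10.7 CPM with *Kmt2d* KO, and its differences of -0.22 ± 0.18 and -0.03 ± 0.18 were not called (adjusted p = 0.370 and 0.934). It was the only one of the 10 whose *Kmt2c* KO libraries all lay below WT, as did those of 26.5% of all genes.

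Set against each other in 67NR, *Kmt2c* KO and *Kmt2d* KO cells differed by -0.19 to 0.66 on the log2 scale over the 10 genes, and 0 were called in either direction, where 0.132% of all genes were called higher and 1.28% lower with *Kmt2c* KO. At an unadjusted p under 0.05, 0 of the 10 passed, where 10.9% of all genes did, and DESeq2 called 0, where it called 4.37%. The largest difference was that of *Cdkn1a* (0.66 ± 0.43, adjusted p = 0.655), which was called with the replicate block (0.66, adjusted p = 0.0853, where 1.59% of all genes were called higher) and with replicates 1 and 2 only (0.67, adjusted p = 7.30e-04, where 5% were). Libraries of the KO groups did not overlap for *Phlda3* alone, where 9.38% of all genes did not overlap in that direction. The nearest *Phlda3* libraries were at 71.843 and 71.775 CPM. Standard errors of these differences ran from 0.16 to 0.60, and the lack of a call does not show that the KO groups were alike.

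In 168FARN, where few genes of any kind were called without the replicate block, none of the 10 was. Against WT, edgeR's test called 0 of the 10 with *Kmt2c* KO and 0 with *Kmt2d* KO, where it called 0.359% and 0.286% of all 12253 genes in either direction, and DESeq2 also called 0, where it called 2.35% and 2.02%. At an unadjusted p under 0.05, 0 of the 10 passed in either KO group, where 5.92% and 5.28% of all genes did. With the replicate block, edgeR called 7.23% and 5.9% of all genes. In that fit *Phlda3* (0.58, adjusted p = 0.00935) and *Mdm2* (0.36, adjusted p = 0.0436) were higher with *Kmt2c* KO, under the fold threshold. *Trp53inp1* was called lower with *Kmt2d* KO. The median log2 fold change of the 10 was 0.02 for *Kmt2c* KO and -0.11 for *Kmt2d* KO, beside 0.01 over all genes in each. The KO groups share their WT libraries here too. Between them, edgeR called 0 of the 10, where it called 0.253% of all genes, DESeq2 called 0, where it called 1.92%, and 1, *Ccng1*, passed an unadjusted p under 0.05, where 5.03% did.

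*Trp53* was at 218, 202 and 275 CPM in 168FARN WT libraries, at 268, 245 and 218 CPM with *Kmt2c* KO and at 246, 260.4 and 236 CPM with *Kmt2d* KO. *Mdm2* was at 333, 316 and 239.9 CPM in WT libraries, at 408, 439 and 299 CPM with *Kmt2c* KO and at 335, 383 and 274 CPM with *Kmt2d* KO. The groups overlapped for both, with log2 fold changes of 0.074 ± 0.17 and 0.11 ± 0.17 for *Trp53* and 0.37 ± 0.22 and 0.17 ± 0.22 for *Mdm2*. *Cdkn1a* was at 287, 325 and 159 CPM in WT libraries, at 291, 317 and 145 CPM with *Kmt2c* KO and at 207, 295 and 129 CPM with *Kmt2d* KO, and its log2 fold changes were -0.032 ± 0.42 and -0.27 ± 0.42. *Ccng1* was at 553, 524 and 430.1 CPM in WT libraries, at 457, 493 and 681 CPM with *Kmt2c* KO and at 347, 314 and 441 CPM with *Kmt2d* KO. Its *Kmt2c* KO and *Kmt2d* KO libraries did not overlap, where 5.31% of all genes did not in that direction, and the difference between them was not called (log2 difference 0.55 ± 0.22, adjusted p = 0.913).

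For the apoptosis genes of 168FARN, the spread within a group came mainly from replicate 3. *Bbc3* was at 41.9, 43.2 and 8.07 CPM in WT libraries, at 55.9, 53.4 and 5.002 CPM with *Kmt2c* KO and at 44.6, 55.3 and 4.97 CPM with *Kmt2d* KO. *Trp53inp1* was at 168, 140.1 and 17.3 CPM in WT libraries, at 111, 117 and 18.1 CPM with *Kmt2c* KO and at 108, 75.1 and 14.2 CPM with *Kmt2d* KO. In each group replicate 3 was several times lower than the others, and the standard errors of the log2 fold changes were 1.06 and 1.06 for *Bbc3* and 1.00 and 1.00 for *Trp53inp1*. With the replicate block, *Trp53inp1* was called lower in *Kmt2d* KO cells (-0.60, adjusted p = 0.0220, where 3.17% of all genes were called lower). *Phlda3* was at 126, 125 and 61.9 CPM in WT libraries, at 193, 205 and 80.4 CPM with *Kmt2c* KO and at 125, 158 and 74.4 CPM with *Kmt2d* KO, and its difference in *Kmt2c* KO cells of 0.62 ± 0.44 (adjusted p = 0.9999) was the largest of the 10 in that comparison. Within each replicate number *Phlda3* was higher in *Kmt2c* KO than in WT. *Bax*, *Zmat3* and *Sesn1* had log2 fold changes of -0.43 to -0.01 over both KO groups. With replicates 1 and 2 only, an alternative chosen after the data were seen, *Phlda3* was called higher and *Sesn1* lower in *Kmt2c* KO cells and *Trp53inp1* and *Ccng1* lower in *Kmt2d* KO cells, where 14.5% of all genes were called with *Kmt2c* KO and 11% with *Kmt2d* KO.

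The difference between the lines in the KO effect was tested as an interaction over all 18 libraries. For *Kmt2c* KO, 5 of the 10 genes had a called higher effect in 67NR than in 168FARN, where 8.49% of all 13882 genes did, and for *Kmt2d* KO 3 of the 10, where 6.68% did. In both, 0 had a called lower effect, where 7.55% and 3.92% of all genes did. With the replicate block the counts were 9 and 7, where 17.4% and 15.4% of all genes were called higher, and with replicates 1 and 2 only they were 8 and 8, where 19.2% and 18% were. At an adjusted p under 0.05 with no fold threshold, 3 passed for *Kmt2c* KO and 2 for *Kmt2d* KO, where 11.5% and 7.3% of all genes did. The largest differences were those of *Cdkn1a* (2.84 ± 0.65 for *Kmt2c* KO, adjusted p = 0.00838, and 2.44 ± 0.65 for *Kmt2d* KO, adjusted p = 0.0302) and of *Ccng1* (1.97 ± 0.32, adjusted p = 5.26e-04, and 2.41 ± 0.32, adjusted p = 1.34e-04). These 4 calls held with each library left out. *Mdm2*, at 1.32 ± 0.51 and 1.28 ± 0.51, was not called (adjusted p = 0.116 and 0.168), but was with the replicate block (adjusted p = 7.54e-06 and 1.41e-05). It was also called for *Kmt2c* KO without replicate 3 of 168FARN WT or of 67NR *Kmt2c* KO (1.57 and 1.74), and for *Kmt2d* KO without replicate 3 of 67NR *Kmt2d* KO (1.59). The block also added *Bax*, *Bbc3* and *Trp53inp1* for *Kmt2c* KO (0.87, 1.01 and 0.76) and *Bbc3*, *Zmat3* and *Trp53inp1* for *Kmt2d* KO (0.76, 0.77 and 1.18). The line is confounded with table and collection in this test as well.

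Several of the same genes differed between collections. With genotype in the fit, 5 of the 10 were called lower in replicate 3 than in replicates 1 and 2 in 168FARN, where 25.7% of all genes were called lower, and 4 in 67NR, where 13% were. In both lines 0 were called higher, where 22.5% and 15.1% of all genes were. *Trp53inp1* was lower in 168FARN (log2 difference -2.82 ± 0.14, adjusted p = 7.82e-09) and in 67NR (-1.68 ± 0.11, adjusted p = 4.13e-06), as were *Bbc3* (-3.01 ± 0.20 and -0.90 ± 0.17) and *Cdkn1a* (-0.98 ± 0.10 and -1.02 ± 0.19). *Bax* (-0.84 ± 0.086) and *Phlda3* (-1.08 ± 0.11) were called lower in 168FARN and *Mdm2* (-1.10 ± 0.11) in 67NR. In 67NR *Bax* went the other way and was higher in replicate 3, under the fold threshold (0.51 ± 0.13, adjusted p = 0.00733). *Trp53* differed by 0.029 ± 0.12 and -0.093 ± 0.18 (adjusted p = 0.837 and 0.705), and *Zmat3* in 168FARN, at -0.58 ± 0.087, was called only without *Kmt2c* KO replicate 1 or 3 (-0.61 and -0.63). Of 12 mitotic genes known to be repressed through p21 and the DREAM complex, such as *Ccnb1* and *Plk1*, 12 were called higher in replicate 3 in both lines, and their summed level was 2613 to 2696 CPM in replicate 3 of 168FARN against 682 to 880 CPM in the others, and 2179 to 2527 against 334 to 672 CPM in 67NR. Cell type markers moved with replicate 3 as well. In 168FARN *Cd68*, the only immune marker tested, was lower (log2 difference -4.32 ± 0.19, with a summed level of the immune markers of 2.87 to 5.44 CPM against 72.2 to 93.3 CPM) and *Krt8* higher (1.67 ± 0.091), and in 67NR *Krt8*, *Krt14* and *Krt18* were higher (1.55 ± 0.12, 2.58 ± 0.23 and 1.19 ± 0.11). In 67NR *Epcam* and *Cdh1* passed an unadjusted p under 0.05, where 51.4% of all genes did, and DESeq2 called neither. Of 6 mesenchymal markers, DESeq2 called 3 in 168FARN (*Cdh2*, *Fn1* and *Twist1*) and 4 in 67NR (*Cdh2*, *Fn1*, *Vim* and *Zeb2*) in either direction. It called the adipocyte marker *Fabp4* in both lines, where 47.9% and 28.1% of all genes were called. The part of these genes in the differences of the p53 genes was not tested.

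**Figure D3:**
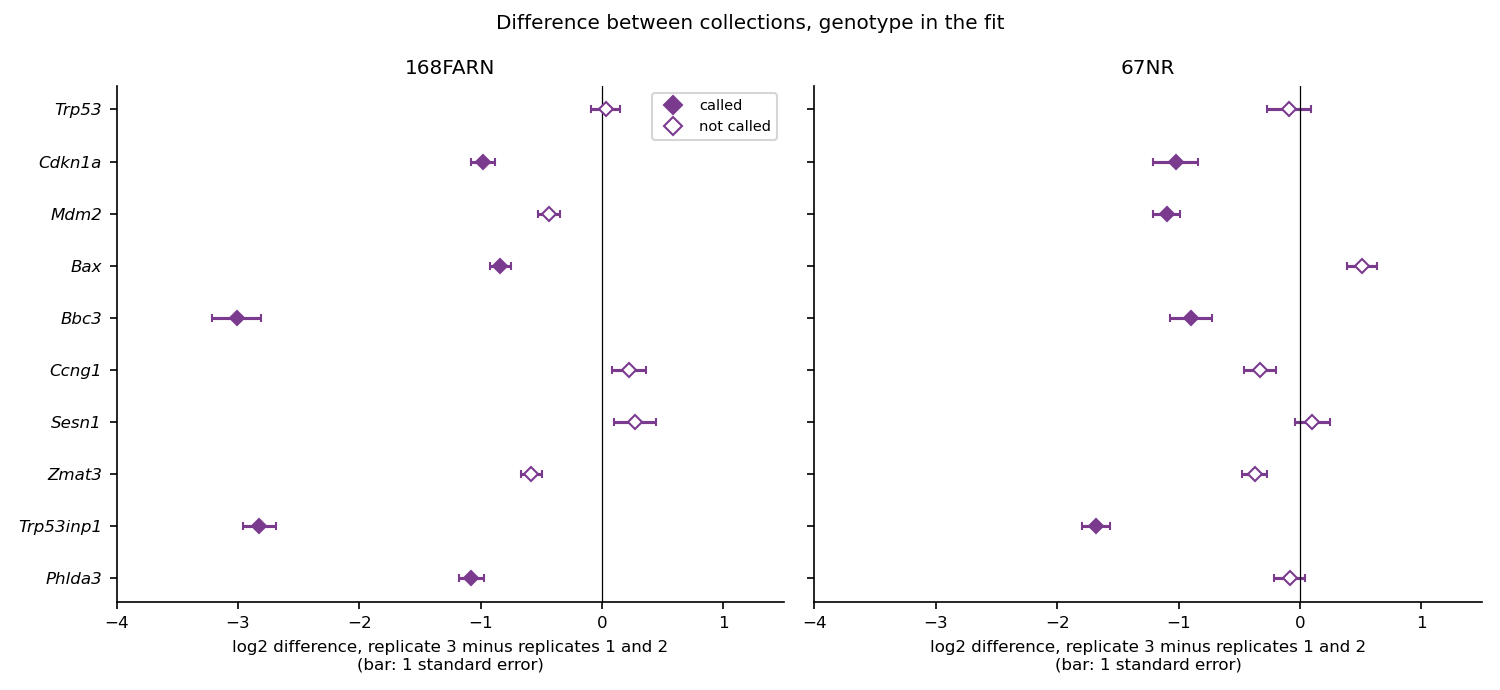
Log2 difference between replicate 3 and replicates 1 and 2 for each of the 10 genes, with genotype in the fit, in 168FARN on the left and 67NR on the right. Diamonds are estimates of edgeR's fit, bars are 1 standard error and filled diamonds were called. All 9 called differences lie below 0, and *Trp53* lies near 0 in both lines. *Bax* in 67NR lies above 0 and is not filled.

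Against WT, edgeR's test called 0 of the 12 mitotic genes in each KO group of both lines. Of all genes it called 35.3% with *Kmt2c* KO and 25.5% with *Kmt2d* KO in 67NR, and 0.359% and 0.286% in 168FARN. DESeq2 also called 0, where it called 37.1% and 28.2% of all genes in 67NR and 2.35% and 2.02% in 168FARN. At an unadjusted p under 0.05, 0 passed, where 43.6% and 34.8% of all genes did in 67NR and 5.92% and 5.28% in 168FARN. Leaving out a single library changed the count of edgeR's test only for 67NR WT replicate 3. Without it, 10 were called higher with *Kmt2c* KO and 4 with *Kmt2d* KO in 67NR, where 2965 and 2316 of all 13988 genes were. That fit had no replicate block, so that 67NR WT replicates 1 and 2 stood against all 3 replicates of each KO group. The replicate block called 10 and 2 higher there, where 21.3% and 17.4% of all genes were, and with replicates 1 and 2 only 11 and 10, where 23% and 19% were. The median log2 fold change of the 12 with *Kmt2c* KO was 0.24, or 0.73 with the block, 1.22 with replicates 1 and 2 only and -0.63 to 2.12 with single libraries left out. For *Kmt2d* KO it was 0.067, 0.44, 0.87 and -0.97 to 2.01. In 168FARN the block called 1, *Cenpa*, higher with *Kmt2c* KO.

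Of 35 other genes known as p53 targets, 34 passed the filter in 67NR and 33 in 168FARN, and *Pmaip1* had no counts. In 67NR, 14 were called higher and 5 lower with *Kmt2c* KO, where 17.9% and 17.4% of all genes were. With *Kmt2d* KO 12 were called higher and 4 lower, where 13.9% and 11.6% of all genes were. With the replicate block the counts were 18 and 8, where the shares were 21.3% and 19.9%, and 14 and 5, where they were 17.4% and 15.4%. The shares of the list called lower were thus near those of all genes without the block. With single libraries left out the counts were 12 to 15 higher and 4 to 5 lower for *Kmt2c* KO and 11 to 13 higher and 2 to 3 lower for *Kmt2d* KO. The median log2 fold changes were 0.66 and 0.52, beside -0.02 over all genes in each. In 168FARN edgeR and DESeq2 called 0 in either KO group without the block, and at an unadjusted p under 0.05 0 and 3 passed. With the block 1 was called higher and 3 lower with *Kmt2c* KO, and 1 higher and 4 lower with *Kmt2d* KO, among them *Fas* and *Btg2* lower in both, where 3.66% of all genes were called higher and 3.57% lower with *Kmt2c* KO and 2.73% and 3.17% with *Kmt2d* KO.

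*Ak1*, which encodes an adenylate kinase, was at 4.88, 4.42 and 4.94 CPM in 67NR WT libraries, at 51.5, 42.1 and 41.7 CPM with *Kmt2c* KO and at 28.3, 31.01 and 28.8 CPM with *Kmt2d* KO (3.33 ± 0.16 and 2.71 ± 0.16, adjusted p = 2.68e-06 and 1.02e-05). *Zfp365*, linked to genome stability, was at 2.69, 3.35 and 1.49 CPM, 62.9, 70.96 and 44.1 CPM and 57.7, 54.5 and 29.9 CPM (4.64 ± 0.40 and 4.31 ± 0.39, adjusted p = 3.34e-05 and 8.06e-05). *Dram1*, a lysosomal regulator of autophagy, was at 1.64, 1.94 and 1.65 CPM, 7.61, 8.14 and 8.03 CPM and 6.55, 6.48 and 4.84 CPM (2.27 ± 0.22 and 1.85 ± 0.22, adjusted p = 6.92e-05 and 3.81e-04). For these 3 genes all KO libraries lay above all WT libraries. *Perp*, a desmosome-associated protein of epithelia, went the other way, at 376, 411 and 367 CPM in WT libraries, at 73.9, 75.8 and 69.003 CPM with *Kmt2c* KO and at 240.1, 201 and 178 CPM with *Kmt2d* KO (-2.32 ± 0.16 and -0.82 ± 0.15, adjusted p = 9.62e-06 and 0.00427). The other genes called lower were *Fas*, *Ei24* and *Xpc* in both KO groups and *Tigar* in *Kmt2c* KO cells. With each library left out, *Perp* kept its call in both KO groups and *Fas* and *Ei24* in *Kmt2c* KO cells. In *Kmt2d* KO cells 2 genes, *Ei24* and *Perp*, were called lower without WT replicate 1 or *Kmt2d* KO replicate 2 or 3.

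**Figure D4:**
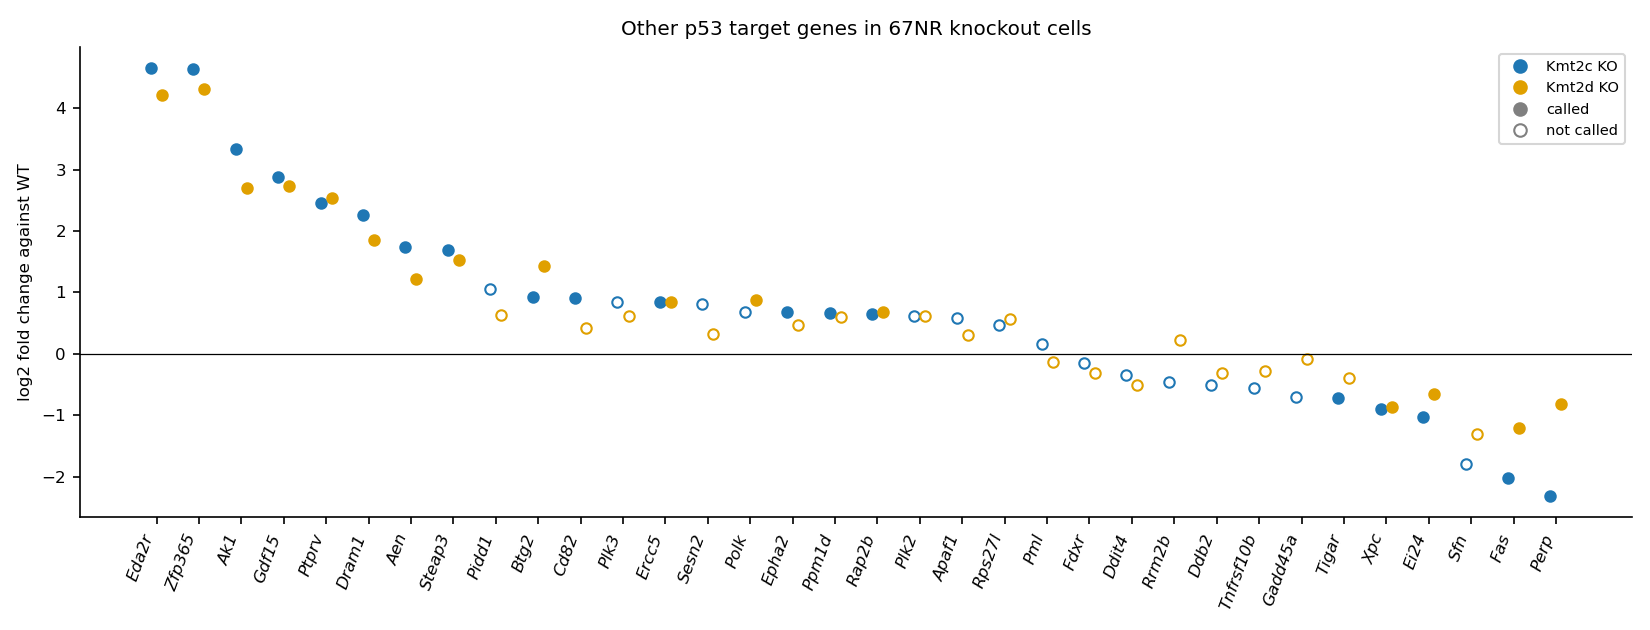
Log2 fold change against WT of the 34 other p53 target genes tested in 67NR, ordered by the value in *Kmt2c* KO cells. Points are estimates of edgeR's fit for *Kmt2c* KO and *Kmt2d* KO cells, and filled points were called. Filled points stand at both ends, 14 above and 5 below 0 for *Kmt2c* KO and 12 above and 4 below for *Kmt2d* KO.

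Of 19 genes whose products regulate p53 or belong to its family, 18 passed the filter in 67NR and 17 in 168FARN. In 67NR, 1 was called higher and 3 lower with *Kmt2c* KO, where 17.9% and 17.4% of all genes were, and 2 higher and 0 lower with *Kmt2d* KO, where 13.9% and 11.6% were. Under the replicate block the counts were 2 and 4, and 2 and 2, where 21.3% and 19.9%, and 17.4% and 15.4%, of all genes were called. In 168FARN edgeR and DESeq2 called 0, and 0 passed an unadjusted p under 0.05. *Cdkn2a*, the locus of p16INK4a and of ARF, which inhibits MDM2, was at 1.12, 0.837 and 0.735 CPM in 67NR WT libraries, at 10.5, 9.34 and 9.90 CPM with *Kmt2c* KO and at 5.996, 8.85 and 8.89 CPM with *Kmt2d* KO (3.53 ± 0.27 and 3.20 ± 0.26, adjusted p = 1.64e-05 and 4.48e-05). Gene counts do not tell its products apart. In 168FARN WT *Cdkn2a* was at 28.9, 24.2 and 8.82 CPM. *Trp63*, the p53 relative that marks basal epithelia, was at 7.41, 8.12 and 1.40 CPM in 67NR WT, 0.0522, 0 and 0.376 CPM in *Kmt2c* KO (-5.37 ± 1.40, adjusted p = 0.0161) and 0.148, 0.221 and 1.61 CPM in *Kmt2d* KO cells (-3.06 ± 1.22, adjusted p = 0.105), and had no counts in 168FARN. The kinase gene *Atm* fell by 0.63 (-0.63 ± 0.16, adjusted p = 0.0144) and *Trp53bp2*, which encodes a p53-binding protein, by 0.62 (-0.62 ± 0.17, adjusted p = 0.0183) in *Kmt2c* KO cells. In *Kmt2d* KO cells they differed by -0.41 ± 0.16 and -0.53 ± 0.17, under the fold threshold. With each library left out, *Cdkn2a* kept its call in both KO groups and *Trp63* in *Kmt2c* KO cells. The *Kmt2c* KO call of *Atm* was lost without *Kmt2c* KO replicate 1 or 2 or WT replicate 3, that of *Trp53bp2* without *Kmt2c* KO replicate 2 or 3 or WT replicate 3, and the *Kmt2d* KO call of *Rchy1* (higher) without *Kmt2d* KO replicate 1 or 2 or WT replicate 3. Left-out fits called 1 to 2 higher and 1 to 3 lower with *Kmt2c* KO, and 1 to 2 higher and 0 to 2 lower with *Kmt2d* KO. The 2 lower were *Chek1* and *Trp63*, without *Kmt2d* KO replicate 3.

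The genes with levels most like *Cdkn1a* over the 18 libraries, after removal of the mean of each line, were *Pde2a*, *Dusp1* and *Rundc3a* (Pearson's r of log2(CPM + 1) of 0.965, 0.962 and 0.962, among 11988 genes). *Pde2a* was at 6.91, 6.26 and 1.75 CPM in 67NR WT libraries, at 98.5, 81.7 and 60.5 CPM with *Kmt2c* KO and at 51.8, 60.5 and 46.01 CPM with *Kmt2d* KO, and at 34.3, 36.6 and 19.1 CPM in 168FARN WT. The genes most like *Trp53* were *Cdk20*, *Sox12* and *Dhrs1* (0.898, 0.890 and 0.879). *Dhrs1* was at 11.8, 10.97 and 8.50 CPM in 67NR WT and 43.2, 41.6 and 45.9 CPM in *Kmt2c* KO cells, and at 7.90, 8.62 and 10.6 CPM in 168FARN WT. Libraries share genotype and collection, and these correlations are descriptions.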

How the data were processed

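PolyA-selected RNA of 18 libraries was sequenced, and reads were aligned by the authors to mm9 (build from the submitters' processing notes) with STAR within the VIPER pipeline. The authors deposited raw counts of reads per gene symbol, without normalization, in a table for each line. The STAR version, annotation and strand setting are not given in the sources used here, and no annotated gene overlaps the 10 genes. The 10 genes, the other lists and the tests were chosen with earlier results of these data known. The rule for named genes took all 10 and, from each other list of p53 genes and each line, up to 4 genes called against WT with the smallest p in either KO group.

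The software was R 4.3.3 with edgeR 4.0.16 and DESeq2 1.42.0, and Python 3.11.15. Each comparison within a line used edgeR's quasi-likelihood test (robust, TMM, filterByExpr by group) on its 9 libraries with genotype as the only factor, over 12253 genes in 168FARN and 13665 in 67NR. WT lines and interactions were tested on 18 libraries over 13882 genes. Adjusted p-values are those of Benjamini and Hochberg over all genes of a fit, and standard errors were taken as the size of the log2 fold change over the square root of F. Levels come from a common TMM scaling. The steps were tested on simulated data. These held no difference between collections, so that the test does not cover the shift of replicate 3. Library totals were 14359760 counts or more, and the part of depth in the precision was not tested.

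Replicate numbers are shared between genotypes and were taken to mark the collection, which the labels do not state. The study removed batch by collection time for its heatmaps only and tested genotype without it. Between same-numbered samples, deviations from the group mean correlated with r of 0.743 to 0.927 (168FARN) and r of 0.491 to 0.833 (67NR). Between differently numbered samples r reached 0.815 (168FARN) and 0.734 (67NR). In 67NR the same-number maxima were lower, at 0.619 for number 1 and 0.602 for number 2. There, *Kmt2d* KO replicate 1 correlated at 0.703 with WT replicate 2 and at 0.568 with WT replicate 1. These values set replicate 3 apart but do not show how numbers 1 and 2 pair. The replicate number was added as a block as an alternative. Positions come from an mm9 annotation (GENCODE vM1) and sequences from the mm9 genome. The other alternatives were DESeq2's size factors, DESeq2, no filter, only the 6 libraries compared, an adjusted p under 0.05 with no fold threshold, fits without *Rn45s*, each library left out and, added after the data were seen, replicates 1 and 2 only. Left-out fits of genotypes, WT lines and interactions had no replicate block. Leaving out a replicate 3 therefore also left the collections unbalanced between groups.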

Additional observations from a re-analysis of the deposited data

Results flagged for a closer look

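The effect of the KO on 8 combinations of gene and KO differed between the lines by the interaction test of edgeR. For *Kmt2c* KO, the effect in 67NR minus that in 168FARN was 0.92 for *Trp53* (adjusted p = 0.0576), 2.84 for *Cdkn1a* (0.00838), 1.97 for *Ccng1* (5.26e-04), 1.09 for *Zmat3* (0.0456) and 1.43 for *Phlda3* (0.0695) on the log2 scale. For *Kmt2d* KO it was 2.44 for *Cdkn1a* (adjusted p = 0.0302), 2.41 for *Ccng1* (1.34e-04) and 1.53 for *Phlda3* (0.0715). The call of *Trp53* held with each library left out but not with replicates 1 and 2 only (0.35, adjusted p = 0.117).

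The calls of *Phlda3* rested on single libraries. For *Kmt2c* KO it was lost without replicate 1 or 2 of 168FARN WT, of 67NR WT or of 67NR *Kmt2c* KO (adjusted p = 0.104 to 0.144). For *Kmt2d* KO it was lost without replicate 1 or 2 of 168FARN WT, replicate 1 or 3 of 168FARN *Kmt2d* KO, any replicate of 67NR WT or replicate 2 of 67NR *Kmt2d* KO (0.103 to 0.160). With the replicate block *Phlda3* was called for both (adjusted p = 1.01e-05 and 1.08e-05). The call of *Zmat3* for *Kmt2c* KO was lost without replicate 1 of 67NR *Kmt2c* KO (1.01, adjusted p = 0.104), and for *Kmt2d* KO *Zmat3* was called only without replicate 3 of 168FARN WT (1.09, adjusted p = 0.0539).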

How the results depend on the processing

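Of 162 counts of called genes under alternatives, 150 stayed within 1.5 times the main count. With the replicate block, 1 of the 10 genes was called in 168FARN *Kmt2d* KO and 1 in 67NR *Kmt2c* KO against *Kmt2d* KO cells, in place of 0, and the interactions had 9 and 7 in place of 5 and 3. Beyond *Bbc3* and *Trp53inp1* in 67NR *Kmt2d* KO cells, the block changed no other call of the 10 genes. With replicates 1 and 2 only, 2 were called in each KO group of 168FARN, 1 between KO groups of 67NR, and 8 in each interaction, and at an adjusted p under 0.05 with no fold threshold 3 in the *Kmt2c* KO interaction. With single libraries left out, the count was 3 to 6 for 67NR *Kmt2d* KO and 3 to 6 for the *Kmt2c* KO interaction. Changes of sign were seen only for differences that were not called. With replicates 1 and 2 only they were *Cdkn1a* (0.0054) and *Ccng1* (-0.17) in 168FARN *Kmt2c* KO, *Bax* (0.0042) in *Kmt2d* KO and *Trp53* (0.0013) between the KO groups, and with the replicate block *Bbc3* in 168FARN *Kmt2d* KO cells (-0.044). With single libraries left out, 168FARN *Kmt2c* KO against WT ranged from -0.011 to 0.24 for *Trp53*, -0.27 to 0.25 for *Cdkn1a*, -0.072 to 0.22 for *Ccng1*, -0.27 to 0.18 for *Bax*, -0.14 to 0.83 for *Bbc3* and -0.89 to 0.088 for *Trp53inp1*. *Kmt2d* KO against WT ranged from -0.23 to 0.23 for *Bax*, -0.31 to 0.72 for *Bbc3* and -0.045 to 0.47 for *Phlda3*. *Kmt2c* KO against *Kmt2d* KO ranged from -0.12 to 0.042 for *Trp53*, -0.015 to 0.57 for *Cdkn1a*, -0.28 to 0.18 for *Bax*, -0.41 to 0.63 for *Bbc3*, -0.33 to 0.065 for *Sesn1*, -0.18 to 0.87 for *Trp53inp1* and -0.12 to 0.18 for *Zmat3*. In 67NR, *Kmt2c* KO against *Kmt2d* KO ranged from -0.026 to 0.57 for *Mdm2*, -0.053 to 0.31 for *Ccng1* and -0.52 to 0.26 for *Trp53inp1*, and *Kmt2d* KO against WT from -0.10 to 0.078 for *Sesn1*. Replicate 3 against the others ranged from -0.17 to 0.16 in 168FARN and -0.36 to 0.19 in 67NR for *Trp53*, and the WT lines from -0.25 to 0.72 for *Trp53inp1*. Why these values moved was not tested. No blocked fit of the WT lines was made, since the block lies within each line. The lowest count of the 10 genes in a library was 70, that of *Sesn1* in 168FARN *Kmt2d* KO replicate 2. Whether depth limited the precision was not tested.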

Other observations

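The 10 genes varied together to different degrees in the 2 lines. The mean of each replicate number was removed, which leaves only differences between genotypes within a number. The median Pearson correlation between pairs of the 10 genes was then 0.859 over the 9 libraries of 67NR and 0.138 over those of 168FARN. These values describe libraries that share genotype and restate the KO differences given above. They were not set beside those of all genes. In 67NR, *Fas*, which encodes a death receptor, was at 76.3, 91.3 and 62.3 CPM in WT libraries, at 18.4, 24.1 and 10.6 CPM with *Kmt2c* KO and at 43.3, 38.04 and 12.8 CPM with *Kmt2d* KO, while the death receptor gene *Eda2r* was at 4.27, 6.14 and 1.79 CPM, 105, 119.8 and 64.5 CPM and 90.1, 79.1 and 46.1 CPM. Both are counted among the p53 targets above, and they were chosen here after their values were seen. All KO libraries of *Fas* lay below WT and all KO libraries of *Eda2r* above it. In 168FARN WT *Fas* was at 13.2, 12.6 and 0.875 CPM and *Eda2r* at 160.1, 149 and 61.2 CPM.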
